A study of Homo sapiens with 19 samples.

Results

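The 9240 promoters described here belong to long non-coding RNA (lncRNA) genes that lie away from protein-coding genes. They were chosen by position alone, from the GENCODE release 44 annotation of the human genome (hg38): the gene is annotated as lncRNA, sits on an autosome, and has a transcription start site (TSS) outside every protein-coding gene body and more than 5 kb from every protein-coding gene start. Each promoter is the 2001 bp window reaching 1 kb to either side of the TSS. The TSS is the 5′ end of the gene record, and starts of other transcripts of the same lncRNA gene were not examined. The 9240 are among 18390 autosomal lncRNA starts and 37501 autosomal lncRNA and protein-coding starts in all. The other 9150 lncRNA starts and the 19111 protein-coding starts served for comparison, as did windows of the same width 10 kb upstream and downstream of each intergenic lncRNA start.

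The study profiled MOLM-13 cells, an established human acute myeloid leukaemia line, by CUT&RUN, in which an antibody guides a nuclease to release the chromatin that carries a mark. Corin is a bifunctional inhibitor of the CoREST corepressor complex, acting on its demethylase LSD1 and its deacetylases. Cells treated with 0.1 µM Corin for 24 h were compared with cells in vehicle (DMSO) over the same time. The labels give 0.1 µM for the DMSO libraries as well, and what it refers to there is not stated. Peak lists of 12 of the 19 libraries were analysed: H3K4me3, H3K4me2 and H3K27ac, each in 2 Corin and 2 DMSO libraries. Not analysed here were 4 libraries of the combined all-trans retinoic acid and Corin treatment, 1 LSD1 library and 2 IgG controls. All 12 libraries came from 1 cell line, and the labels do not say whether replicates were separate cultures, so the p-values measure only the spread between these libraries.

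As background, lncRNAs are transcripts without a known protein product, many of them present at a low level and in few cell types. H3K4me3 is the methylation mark of active transcription starts and is strongest over CpG-rich promoters. H3K4me2 covers promoters and enhancers and is a substrate of LSD1, and H3K27ac marks active promoters and enhancers and is removed by deacetylases such as those of CoREST. The starts of many intergenic lncRNAs coincide with enhancers, which carry H3K4me2 and H3K27ac with little H3K4me3.

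The sequences of 4 promoters show the range that the results below turn on. Each is 300 bases, from 250 before the TSS to 50 from the TSS onward, read 5′ to 3′ on the gene's own strand from hg38, with every CG dinucleotide in capitals. DLEU1 (chr13:50081919-50082218, plus strand) and MIRLET7IHG (chr12:62602502-62602801, plus strand) carried H3K4me3 in all 4 libraries. TMEM78 (chr1:229249386-229249685, plus strand) had the largest difference in H3K4me2, and BCAN-AS2 (chr1:156661375-156661674, minus strand) the largest in H3K4me3.
DLEU1: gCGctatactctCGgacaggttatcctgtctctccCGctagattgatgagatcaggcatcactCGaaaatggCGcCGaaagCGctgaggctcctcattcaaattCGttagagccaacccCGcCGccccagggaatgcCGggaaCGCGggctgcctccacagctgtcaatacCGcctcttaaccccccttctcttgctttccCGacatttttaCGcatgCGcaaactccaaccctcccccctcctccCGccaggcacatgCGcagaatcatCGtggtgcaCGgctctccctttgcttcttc
MIRLET7IHG: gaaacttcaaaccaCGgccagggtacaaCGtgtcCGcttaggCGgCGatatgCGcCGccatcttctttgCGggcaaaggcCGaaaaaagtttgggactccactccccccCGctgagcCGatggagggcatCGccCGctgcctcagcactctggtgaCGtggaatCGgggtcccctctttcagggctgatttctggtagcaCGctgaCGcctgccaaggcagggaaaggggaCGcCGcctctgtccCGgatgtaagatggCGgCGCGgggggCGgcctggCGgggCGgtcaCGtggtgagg
TMEM78: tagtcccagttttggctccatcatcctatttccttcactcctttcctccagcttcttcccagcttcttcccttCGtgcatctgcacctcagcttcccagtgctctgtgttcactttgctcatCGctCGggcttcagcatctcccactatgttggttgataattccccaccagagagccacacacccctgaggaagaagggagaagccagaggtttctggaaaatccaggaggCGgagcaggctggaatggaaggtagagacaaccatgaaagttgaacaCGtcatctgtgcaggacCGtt
BCAN-AS2: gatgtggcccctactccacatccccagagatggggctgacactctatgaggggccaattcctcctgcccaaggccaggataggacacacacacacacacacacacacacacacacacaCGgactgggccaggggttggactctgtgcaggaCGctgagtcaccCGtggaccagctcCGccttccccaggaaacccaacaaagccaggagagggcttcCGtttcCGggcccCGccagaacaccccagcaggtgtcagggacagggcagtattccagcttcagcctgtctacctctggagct

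The first pair hold 21 and 27 CG dinucleotides, and the other two 6 and 7. Over the whole set the counts differed in the same direction. The median promoter held 4 CG dinucleotides, against 23 among the 391 members with H3K4me3 in both DMSO libraries and 11 among the 491 with H3K4me2 and no H3K4me3. Protein-coding promoters of the same length held a median of 18.

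Most intergenic lncRNA starts carried no peak. Of the 9240, 7974 (86.3%) had no peak of any mark in any of the 12 libraries, against 37.2% of protein-coding starts. Another 1266 had a peak in at least 1 library and 162 had one in all 12. An overlap of 1 bp with a peak was enough for a window to count as marked. The windows are not all independent: 1024 overlapped another member's window, and the 9240 made up 8709 separate loci. In 6449 cases the gene had an identifier and no symbol, 2023 carried LINC symbols, and 644 were tagged in the annotation as overlapping a pseudogene, where reads can also come from near-identical copies.

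H3K4me2 was the most common mark. In the order Corin 1, Corin 2, DMSO 1 and DMSO 2, it was found at 1100, 1047, 892 and 975 members. H3K27ac was found at 593, 550, 356 and 393 members, and H3K4me3 at 455, 467, 406 and 445. In each mark both Corin libraries lay above both DMSO libraries, with the narrowest gap in H3K4me3.

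**Figure D1:**
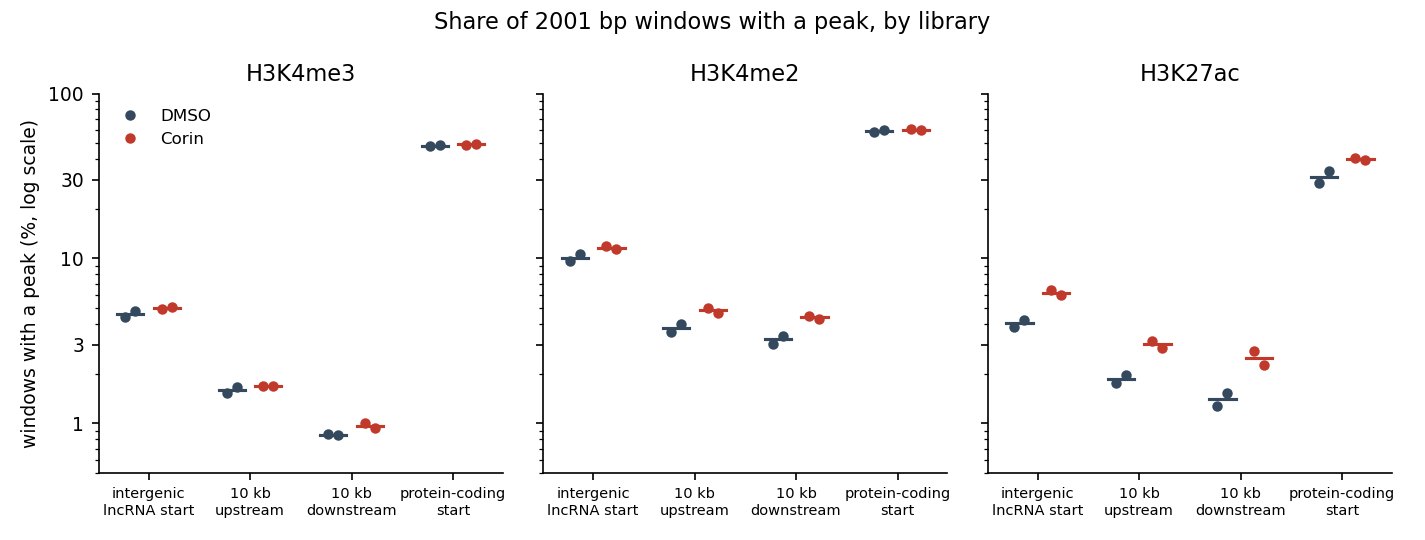
Percent of 2001 bp windows with a peak (log axis) in each library, for intergenic lncRNA starts, windows 10 kb upstream and downstream of them, and protein-coding starts. Points are libraries and lines are group means (2 libraries each); intergenic lncRNA starts lie between the flanks and the protein-coding starts in all 3 panels.

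Against protein-coding starts, the shares of intergenic lncRNA starts were lower in every library. For H3K4me3 the mean share was 4.60% ± 0.298 (SD, n = 2) in DMSO, against 48.3% ± 0.833 at protein-coding starts. For H3K4me2 it was 10.1% ± 0.635 against 59.2% ± 1.53, and for H3K27ac 4.05% ± 0.283 against 31.3% ± 3.57 (SD, n = 2 each). Over all 12 libraries the log2 ratio was -2.88, or 0.136 times the protein-coding share (exact two-sided sign-flip permutation test over libraries, p = 0.000488, the smallest that 12 libraries can give; the test treats the marks as independent).

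The distance from protein-coding promoters was not equal for the 3 marks. The log2 ratio to the protein-coding share was -3.34 for H3K4me3, -2.82 for H3K27ac and -2.47 for H3K4me2. H3K4me3 lay 0.88 below H3K4me2 and 0.52 below H3K27ac, and H3K4me2 lay 0.36 above H3K27ac, each on the log2 scale. Each of these 3 differences, compared after the values had been seen, gave p = 0.0286 in an exact two-sided permutation test of 4 libraries against 4, the smallest possible, and 0.0286 after Benjamini-Hochberg adjustment. The Corin and DMSO libraries of a mark were pooled in this test. Relative to coding promoters, H3K4me3 was thus the mark with the lowest share at intergenic lncRNA starts. Its lists were also the shortest, with 11104 to 11883 peaks against 30896 to 41152 for H3K4me2. Whether list length bears on the order of the marks was not tested.

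The marks were nevertheless centred on the starts. Members had a peak 2.51 times as often as the windows 10 kb upstream and 3.45 times as often as those 10 kb downstream, each at p = 0.000488 over 12 libraries (exact two-sided sign-flip permutation test). The excess over the downstream windows was 5.30-fold for H3K4me3, 2.88-fold for H3K4me2 and 2.70-fold for H3K27ac. Coverage, read at single bases every 200 bp, was highest 200 bp after the TSS for each mark under both treatments. In DMSO, 3.40% of members were under an H3K4me3 peak there, 6.75% under an H3K4me2 peak and 2.21% under an H3K27ac peak. The selection rule keeps protein-coding starts out of the inner 5 kb and not out of the flanks, so the outer part of the profile can include them.

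**Figure D2:**
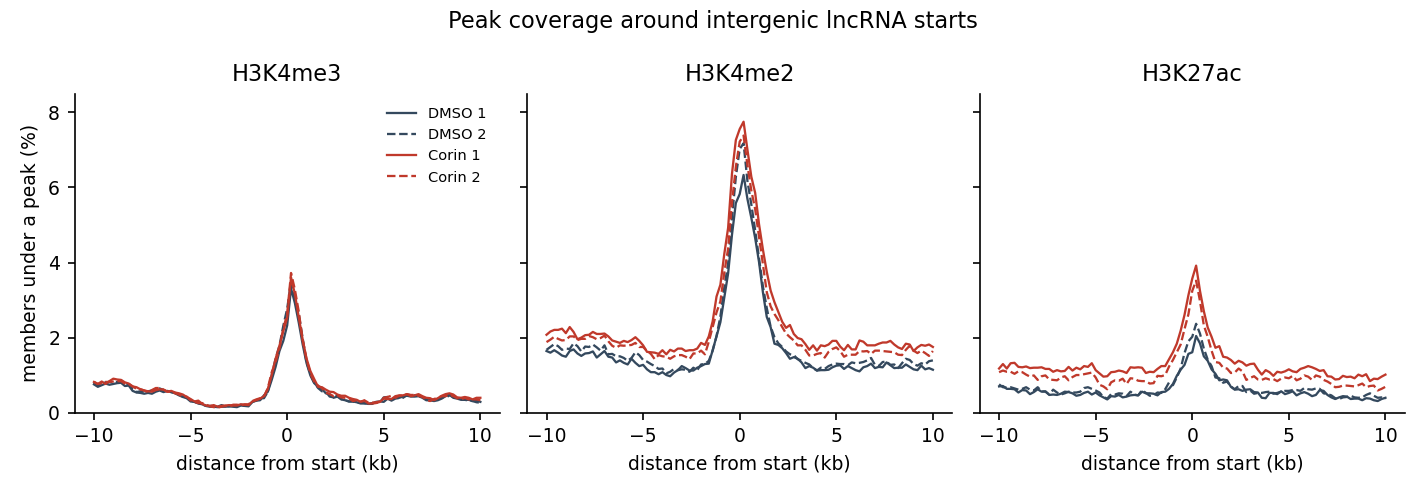
Percent of the 9240 intergenic lncRNA starts under a peak at single bases every 200 bp, against distance from the start in kb (positive values lie downstream), with 1 line per library. Coverage is highest 200 bp after the start in all 3 panels, and away from the start the Corin lines of H3K27ac and H3K4me2 lie above the DMSO lines.

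Where a window had a peak, the peak often did not reach the TSS base. The TSS was under the peak in 51.4 to 57.5% of members with H3K4me3, against 66.8 to 73.4% of protein-coding starts, over the 4 libraries of the mark. For H3K4me2 the ranges were 60.3 to 66.6% and 51.3 to 68.1%, and for H3K27ac 41.9 to 55.6% and 39.8 to 58.0%, so these overlapped. H3K4me3 peaks at members were also narrower, with a median width per library of 807 to 896 bp against 1329 to 1435 bp at protein-coding starts, and so were H3K4me2 peaks, at 1058 to 1217 bp against 1412 to 1662 bp. For H3K27ac the widths overlapped, at 571 to 763 bp and 622 to 956 bp.

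CpG-rich members carried marks more often than the others, although most marked members were CpG-poor. Windows with a CpG observed/expected ratio of at least 0.6 and a GC content of at least 50% were called CpG-rich, and 659 members (7.13%) were, against 47.9% of protein-coding windows. In DMSO, H3K4me3 was found at 34.8% ± 1.82 (SD, n = 2) of CpG-rich and 2.28% ± 0.181 of CpG-poor members. Of the 900 members with a mark in both DMSO libraries, 324 (36.0%) were CpG-rich. The contrast was 48.4% ± 2.79 against 7.16% ± 0.470 for H3K4me2 and 17.9% ± 2.36 against 2.99% ± 0.124 for H3K27ac. Within each CpG class the members lay below protein-coding promoters: CpG-rich members had 0.502 times the share of CpG-rich protein-coding starts and CpG-poor members 0.147 times that of CpG-poor ones (exact two-sided sign-flip permutation test over 12 libraries, p = 0.000488 each).

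Nearness to protein-coding genes went with the marks as well. In DMSO, H3K4me2 was found at 18.4% ± 0.271 (SD, n = 2) of the 521 members 5 to 10 kb from a protein-coding start and at 17.3% ± 0.945 of the 2769 at 10 to 50 kb. It was found at 8.61% ± 0.730 of the 3681 at 50 to 250 kb and at 1.85% ± 0.312 of the 2269 farther away. H3K4me3 followed the same order, from 9.79% ± 0.543 to 0.815% ± 0.0312, and so did H3K27ac beyond 50 kb. At the threshold of the rule, H3K4me2 was found at 16.7% of the 96 members just outside 5 kb and at 21.5% ± 0.498 of 142 excluded lncRNA starts at 4 to 5 kb.

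The share with H3K4me3 differed with the number of annotated transcripts. The mark was found in DMSO at 3.13% ± 0.278 (SD, n = 2) of the 5588 members with 1 annotated transcript and at 12.9% ± 0.973 of the 654 with 10 or more. Members tagged as overlapping a pseudogene had H3K4me3 at 13.9% ± 0.329, against 3.91% ± 0.296 of the others.

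Short motifs in the 300 base promoters differed in frequency with the marks. Both strands were searched for the TATA-box letters TATAAA and for CCAAT. The myeloid factor motifs searched were GAGGAAG for PU.1 and TTNNGCAA for C/EBP. Also searched were TGANTCA for AP-1, TGTGGT for RUNX factors and AATCAC for GFI1. TATAAA was present in 4.86% of members with H3K4me3 in DMSO, 19.4% of members without any mark, 10.9% of protein-coding promoters and 13.3% of all 37501. GAGGAAG was present in 16.6% of members with H3K4me3, 11.4% of all members and 12.7% of all 37501. The other motifs were less frequent in members with H3K4me3 than in all members. TTNNGCAA was present in 7.16% and 13.5% (10.7% of all 37501), TGANTCA in 5.88% and 11.9% (8.1%), TGTGGT in 5.88% and 18.5% (14.7%) and AATCAC in 7.67% and 14.8% (11.4%). For CCAAT the shares were close, at 35.3% and 37.7% (35.5%). Among the printed promoters, TMEM78 holds GAGGAAG 62 bases before the TSS, BCAN-AS2 holds CCAAT and TGANTCA, and the 2 CpG-dense ones hold none of these letters. A match is a description of the sequence and not a binding site.

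The combination of marks also differed from that of protein-coding promoters. A mark was taken as present in a treatment when both libraries had a peak. Of 900 members marked in DMSO, 393 (43.7%) had H3K4me2 alone, 188 (20.9%) had H3K4me3 with H3K4me2, 164 (18.2%) had all 3 marks, and 98 (10.9%) had H3K4me2 with H3K27ac. At protein-coding starts H3K4me2 alone made up 18.3%, all 3 marks 41.9%, and H3K4me2 with H3K27ac 1.14% of 11227 marked windows. The combination of H3K4me2 with H3K27ac and no H3K4me3, typical of enhancers, was thus found at 98 intergenic lncRNA starts and at 128 protein-coding starts, which are more numerous. These are counts over windows, and no test was applied to them.

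Members of different combinations differed in sequence. Those with H3K4me2 and H3K27ac were CpG-rich in 5.10% of cases and had a median CpG observed/expected ratio of 0.284, against 0.228 for members without a mark in DMSO. Those with all 3 marks were CpG-rich in 52.4% and had a median ratio of 0.647. Members with H3K4me2 alone lay between, at 27.2% and 0.493.

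**Figure D3:**
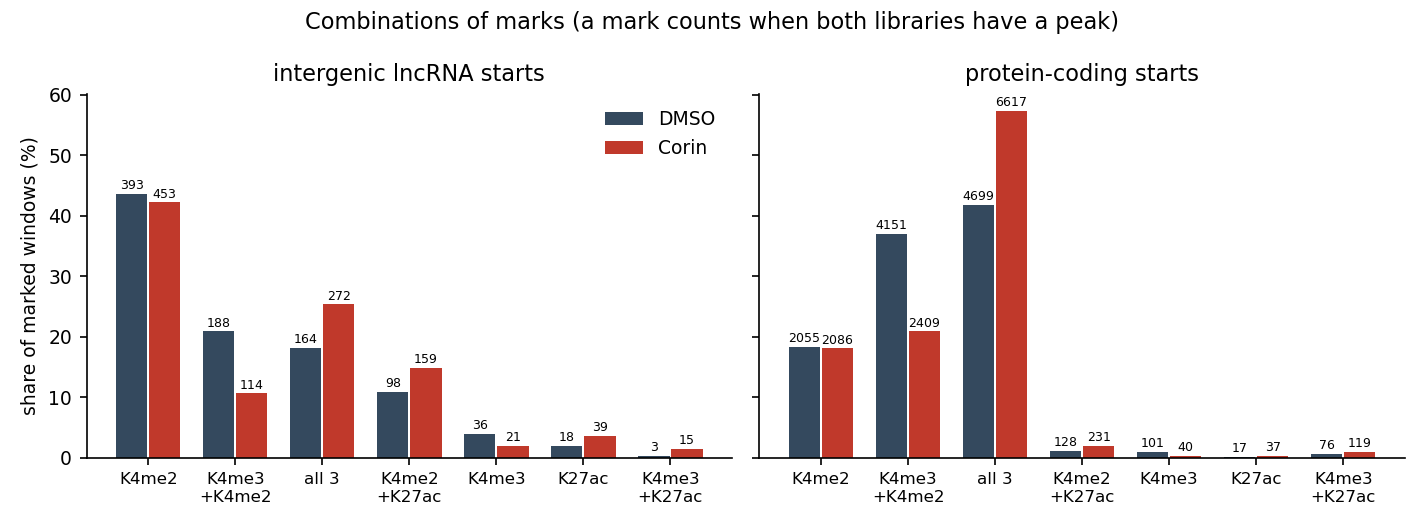
Percent of marked windows with each combination of marks in DMSO and Corin, for intergenic lncRNA starts (left) and protein-coding starts (right). Numbers above the bars are windows; H3K4me2 alone is the most frequent class at intergenic lncRNA starts in both treatments and all 3 marks together at protein-coding starts.

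The comparison of Corin with DMSO asks how these promoters behave when LSD1 and the CoREST deacetylases are inhibited. More intergenic lncRNA starts carried a peak after Corin, with the widest difference in H3K27ac. The H3K27ac share was 6.19% ± 0.329 after Corin and 4.05% ± 0.283 after DMSO (SD, n = 2 each), which is 1.53-fold or 0.61 in log2 (SD of the difference 0.13). For H3K4me2 the shares were 11.6% ± 0.406 and 10.1% ± 0.635, which is 0.20 in log2 (SD 0.10). For H3K4me3 they were 4.99% ± 0.0918 and 4.60% ± 0.298, which is 0.12 in log2 (SD 0.097) and about as large as the spread.

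No single mark can pass 0.05, since the exact two-sided permutation test of 2 libraries against 2 gives p = 0.333 at best, and each of the 3 marks gave that value. Over the 3 marks the share rose by a mean of 0.31 on the log2 scale, or 1.24-fold (exact permutation of the treatment within marks, 216 arrangements, two-sided p = 0.00926, the smallest possible; this treats the marks as independent). The lists differed in length between the treatments, with 34424 and 30029 H3K27ac peaks after Corin and 17599 and 19995 after DMSO. With each list of a mark reduced to the same number of top-scoring peaks the mean was 0.09 (p = 0.0741, exact permutation) and the H3K27ac value 0.19, and when a peak had to cover the TSS base the mean was 0.37 at p = 0.0556. The bases under peaks per member gave a mean log2 ratio of 0.36, and 0.22 at matched number (exact permutation p = 0.0463).

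Relative to protein-coding promoters in the same libraries, the intergenic lncRNA starts responded more in proportion. The log2 response of their share exceeded that of protein-coding starts by 0.09 for H3K4me3, 0.17 for H3K4me2 and 0.25 for H3K27ac, and in each mark both Corin libraries had a higher ratio than both DMSO libraries. The mean was 0.17 (exact two-sided permutation within marks, p = 0.00926, 0.0278 after Benjamini-Hochberg adjustment over 6 such comparisons between sets of windows). At matched number of peaks it was 0.09, again at p = 0.00926, and on the log odds scale, chosen after the values had been seen, it was 0.11 (p = 0.0278, exact permutation). In percentage points the order was the opposite for H3K27ac, with 2.13 points at intergenic lncRNA starts and 8.81 at protein-coding starts, and for H3K4me3, with 0.384 and 0.740. For H3K4me2 it was the same, with 1.52 and 1.18 points.

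The response was not particular to the starts themselves. Windows 10 kb upstream of the same genes had H3K27ac at 3.0% ± 0.191 after Corin and 1.86% ± 0.153 after DMSO (SD, n = 2 each), a log2 ratio of 0.69, and windows 10 kb downstream 0.83. Over the 3 marks the response at the starts was 0.06 smaller on the log2 scale than that upstream (exact permutation p = 0.0833, adjusted p = 0.1) and 0.18 smaller than that downstream (p = 0.0278, adjusted p = 0.0556).

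For H3K27ac the log2 ratio was 0.60 (SD 0.20) at CpG-rich and 0.61 (SD 0.15) at CpG-poor members. For H3K4me2 it was 0.03 (SD 0.085) at CpG-rich and 0.28 (SD 0.12) at CpG-poor members. The difference in response between the CpG classes had a mean over the 3 marks of 0.10 (exact permutation p = 0.139), and for H3K4me2 alone of 0.25 (p = 0.333). CpG-poor members exceeded CpG-poor protein-coding starts by 0.17 over the 3 marks (exact permutation p = 0.00926, adjusted p = 0.0278), and CpG-rich members exceeded CpG-rich protein-coding starts by 0.12 (p = 0.037, adjusted p = 0.0556). The comparisons with flanks and by CpG class were added after the values had been seen.

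**Figure D4:**
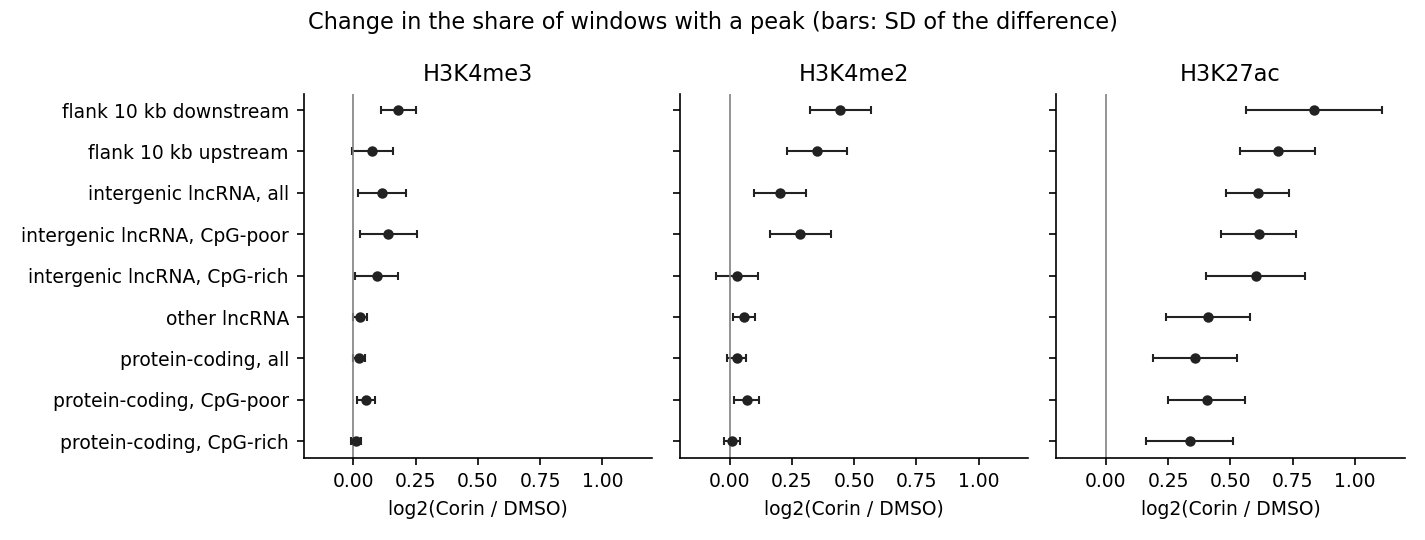
Log2 ratio of the mean share of windows with a peak, Corin over DMSO, for intergenic lncRNA starts, their flanks, other lncRNA starts and protein-coding starts, with intergenic lncRNA and protein-coding starts also split into CpG-rich and CpG-poor. Points are ratios of group means (2 libraries each) and bars the SD of the difference; H3K27ac ratios lie above 0 in all 9 sets drawn, from 0.34 at CpG-rich protein-coding starts to 0.83 in the downstream flanks.

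Calls at single promoters ran mostly in 1 direction. Gained means a peak in each Corin library and in no DMSO library, and lost the reverse. H3K27ac was gained at 89 members and lost at 1, where the background over all 37501 gene starts was 2.32% gained and 0.0213% lost. H3K4me2 was gained at 72 and lost at 4 (background 0.576% and 0.0293%), and H3K4me3 was gained at 11 and lost at 3 (background 0.272% and 0.0667%). Over all 9240 members the share gained was 0.963% for H3K27ac and 0.119% for H3K4me3, both below the background. For H3K4me2 it was 0.779%, above the background. Most members have no peak at all, so the shares among windows with a peak in any of the 4 libraries are given as well. A gained window enters that base through its Corin peaks. On that base H3K27ac was gained at 13.1% of 677 members (background 7.52%), H3K4me2 at 6.11% of 1178 (background 1.31%) and H3K4me3 at 2.12% of 518 (background 0.801%). Losses on the same base were 1 of the 677 for H3K27ac (background 0.0691%), 4 of the 1178 for H3K4me2 (background 0.0666%) and 3 of the 518 for H3K4me3 (background 0.196%). Among flanking windows with a peak, 15.4% upstream and 12.5% downstream gained H3K27ac, 7.54% and 11.6% gained H3K4me2, and 0.585% (1 of 171) and 2.91% (3 of 103) gained H3K4me3.

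These counts moved with the processing. At a matched number of peaks H3K27ac was gained at 27 and lost at 5, H3K4me2 gained at 29 and lost at 14, and H3K4me3 gained at 10 and lost at 7. Leaving out a library loosens the rule, and the number gained then was 135 (without Corin 1 or without DMSO 1), 165 (without Corin 2) and 161 (without DMSO 2) for H3K27ac. For H3K4me2 it was 130 without Corin 2 and 144 without DMSO 2, and for H3K4me3 it was 34, 35 and 41 without Corin 1, Corin 2 and DMSO 2. Gains outnumbered losses in each of these counts, for which no share over all gene starts was computed at the same setting.

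By the bases under peaks, 304 members lay higher in H3K27ac after Corin with no overlap between the groups and 4 lower (background 13.8% higher and 0.264% lower). For H3K4me2 these were 398 and 60 (9.03% and 4.31%), and for H3K4me3 100 and 47 (6.24% and 3.18%). Among members with any peak of the mark the share higher was 44.9% for H3K27ac, close to the 44.6% of all gene starts, 33.8% for H3K4me2, above the background of 20.5%, and 19.3% for H3K4me3, beside 18.4%. The members lower on this base were 4 of 677 for H3K27ac (background 0.855%), 60 of 1178 for H3K4me2 (background 9.79%) and 47 of 518 for H3K4me3 (background 9.36%). For H3K4me2 the share higher was 36.3% in the upstream and 39.4% in the downstream flanks and 28.2% at CpG-poor protein-coding starts, so the members' 33.8% was not particular to them.

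Gains were also counted by the marks already present in DMSO, and whether those marks bear on a gain was not tested. An H3K4me2 gain requires no H3K4me2 peak in DMSO, and most members without one had no other mark either. Of the 72 gains, 71 came from the 8340 members without a mark there. Of the 72, 2 were CpG-rich (2.78%), near the 4.02% of the 8340, and the TSS base was under the peak in both Corin libraries at 15. Of the 89 H3K27ac gains, 35 had H3K4me3 with H3K4me2 in DMSO, 27 had H3K4me2 alone, 8 had H3K4me3 alone and 19 had no mark. Of these gains 34 were CpG-rich (38.2%), near the 36.0% of the 900 members marked in DMSO. The TSS base was under the peak in both Corin libraries at 31 of the 89. The median promoter of an H3K27ac gain held 12 CG dinucleotides and that of an H3K4me2 gain 4, beside 3 in the 8340 members without a mark.

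The 89 H3K27ac gains made up 74 loci, and some were starts with overlapping windows, such as HCG25 with ENSG00000289975 and GUSBP11 with ENSG00000290440. The nearest protein-coding start gained H3K27ac too at 7 of the 89, had it in all 4 libraries at 34 and in none at 36. Over all 9240 members the nearest protein-coding start gained H3K27ac at 2.59%, had it in all 4 libraries at 18.8% and in none at 67.3%. For the 72 H3K4me2 gains these counts were 0, 48 and 19, and the shares over all members 0.314%, 49.7% and 45.1%, so a count of 0 gained is near the background.

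Grouped by their state in DMSO, members with H3K4me3 and H3K4me2 were, of the classes with over 100 members, those at which H3K27ac was added most often. All 3 marks were present after Corin at 83 of those 188 (44.1%). The same step was found at 1956 of 4151 protein-coding starts (47.1%), so the share was close to that of promoters with the same marks in general. H3K27ac was added at 68 of the 393 members with H3K4me2 alone (17.3%), beside 130 of 2055 protein-coding starts (6.33%), and 295 of the 393 kept H3K4me2 alone. Of the 8340 unmarked members, 143 (1.71%) had H3K4me2 alone after Corin, beside 3.82% of unmarked protein-coding starts, 26 had H3K27ac alone and 13 had both. All 3 marks were kept at 162 of 164. These counts rest on whether both libraries of a treatment had a peak and carry no test.

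In the accounts of single members that follow, Corin values come first, and the 2 groups do not overlap where a value is called higher or lower or set against another, unless overlap is stated. Among myeloid and immune lncRNAs, 16 of 25 listed genes were members, and 9 of the 16 had a peak in some library. LUCAT1 (chr5:91054834-91314547, minus strand), a stress-induced lncRNA that restrains interferon responses in myeloid cells, had 922 and 924 bp under H3K4me2 peaks after Corin and 0 and 0 after DMSO. It had no H3K4me3 or H3K27ac peak in any library. MIAT (chr22:26646411-26676475, plus strand) also gained H3K4me2, with 268 and 14 bp against 0 and 0, so that 1 of its values rests on the edge of a peak.

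MIR17HG (chr13:91347686-91397592, plus strand), the host of an oncogenic microRNA cluster, had 1021 and 1353 bp under H3K27ac peaks after Corin and 725 and 849 after DMSO. Its H3K4me3 was 1660 and 1644 bp against 1454 and 1642, a gap of only 2 bp between the groups. MIR155HG (chr21:25561810-25575168, plus strand), the host of a microRNA of immune activation, had less H3K4me3 after Corin, at 1482 and 1289 bp against 1513 and 1654, while its H3K27ac values of 1136 and 1579 bp overlapped those of DMSO at 545 and 1609. MIR181A1HG (chr1:198777861-198937471, minus strand) overlapped between treatments in all 3 marks. At the gene starts of CYTOR, MIR4435-2HG, CASC15, NRIR, IFNG-AS1, UCA1 and LINC00877 no library had a peak. Several of these genes have many annotated transcripts, whose other starts were not examined.

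Of the widely studied lncRNAs, 11 of 22 listed were members and 8 had peaks. MALAT1 (chr11:65497640-65508073, plus strand), an abundant nuclear RNA, had 2001 and 1788 bp under H3K27ac peaks after Corin against 1595 and 1622 after DMSO. Its H3K4me3 was likewise higher, at 848 and 700 bp against 575 and 282, and its H3K4me2 lower, at 1961 and 1688 bp against 2001 and 2001. The 3 marks of MALAT1 thus did not all differ in the same direction.

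NEAT1 (chr11:65422774-65445540, plus strand), the scaffold RNA of paraspeckles, had 874 and 606 bp under H3K27ac peaks after Corin against 345 and 0. At a matched number of peaks the NEAT1 difference changed sign, to -34 bp. DLEU2 (chr13:49956670-50125720, minus strand) had H3K27ac at 2001 and 2001 bp against 1168 and 1902, and H3K4me3 at 1891 and 2001 against 1818 and 1818. DLEU1 (chr13:50082169-50906856, plus strand) was fully covered by H3K4me3, 2001 bp, in all 4 libraries. The gene starts of H19 and MEG3, which are imprinted, and of LINC00511 had no peak in any library, and their other transcript starts were not examined.

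Hosts of small RNAs were among the most marked members. Of 15 snoRNA hosts, whose introns carry small nucleolar RNAs, 14 had H3K4me3 in all 4 libraries. All 14 also had H3K27ac and H3K4me2 in some library. H3K27ac lay higher after Corin at 6 of these 14 and lower at 0, which is near the 44.6% and 0.855% of all gene starts with the mark. H3K4me2 lay higher at 1 and lower at 4 (background 20.5% and 9.79%). SNHG16 (chr17:76557727-76670985, plus strand) showed both: 2001 and 1908 bp under H3K27ac peaks after Corin against 1574 and 1481, and 1273 and 936 bp under H3K4me2 peaks against 2001 and 1406. The median H3K27ac difference over the 14 snoRNA hosts with a peak was 257.5 bp, beside 232 bp over all 677 members with one.

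Of 60 microRNA hosts, 20 had a peak in some library and 12 had H3K27ac. H3K27ac lay higher after Corin at 10 of the 12 and lower at 0, beside 304 of 677 members with the mark (background 44.6% higher and 0.855% lower). At a matched number of peaks the difference at MIR9-1HG, among the 10, changed sign, to -178 bp. MIRLET7IHG (chr12:62602752-62622213, plus strand), a let-7 host, had 1870 and 1470 bp under H3K27ac peaks against 474 and 1411, while its H3K4me2 had the largest negative difference of all members, 1058 and 862 bp against 1635 and 1625. MIR1915HG (chr10:21490272-21497260, minus strand) had H3K27ac at 1335 and 1206 bp against 0 and 418. MIR3945HG (chr4:184843296-184855751, minus strand), 28.9 kb from ACSL1, had H3K27ac at 1223 and 949 bp against 0 and 306 and H3K4me2 at 962 and 924 against 307 and 435.

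Among the other hosts, MIR210HG (chr11:565657-568457, minus strand), the host of a hypoxia-responsive microRNA, gained H3K4me3, with 324 and 476 bp against 0 and 0, and had no H3K27ac in any library. MIR9-3HG (chr15:89361579-89424983, plus strand) had less H3K4me3 after Corin, at 71 and 83 bp against 593 and 307.

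**Figure D5:**
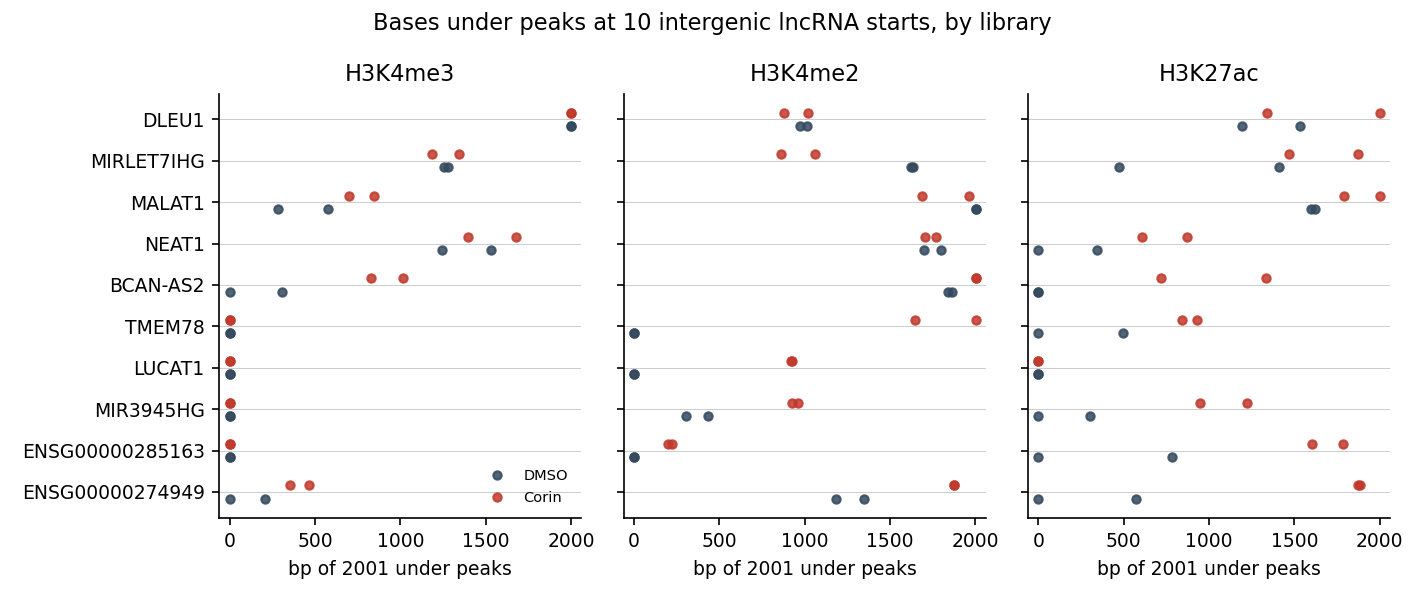
Bases of the 2001 bp window under peaks in each library, for 10 intergenic lncRNA starts. Points are libraries; TMEM78 and LUCAT1 have H3K4me2 after Corin and 0 bp after DMSO, and DLEU1 has 2001 bp of H3K4me3 in all 4 libraries.

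The 5 members with the largest positive H3K27ac difference were CpG-poor by the definition used, as were 205 of all 304 with higher H3K27ac and 473 of the 677 with the mark in any library, which is a similar share. ENSG00000274949, 9.1 kb from AP5S1, had 1874 and 1883 bp under H3K27ac peaks after Corin against 0 and 573 after DMSO. All 3 marks were higher there, with H3K4me2 at 1875 and 1873 bp against 1182 and 1349 and H3K4me3 at 468 and 354 against 0 and 206. ENSG00000263603 (chr17:30729469-30731202, plus strand) had H3K27ac at 1594 and 1439 bp against 312 and 110. ENSG00000289057 (chr1:234599568-234600057, minus strand), 10.1 kb from IRF2BP2 and just short of CpG-rich with a ratio of 0.786 and a GC content of 49.7%, had 1405 and 1545 bp against 426 and 0.

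Some loci with higher H3K27ac had the same nearest protein-coding gene. Near IRF8, the transcription factor of monocyte and dendritic cell development, ENSG00000289932 (chr16:85853902-85863179, plus strand) had 1447 and 1829 bp against 435 and 266. ENSG00000285163 (chr16:85924984-85948824, plus strand) had 1786 and 1601 bp against 785 and 0, and also H3K4me2 at 224 and 197 bp against 0 and 0. LINC02132, 37107 bp from the IRF8 start, had H3K27ac at 1341 and 1231 bp against 585 and 787. ENSG00000285040, 86270 bp from it, had H3K4me2 at 1588 and 1962 bp against 1144 and 1074.

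The IRF8 neighbourhood was singled out after its values were seen, and 3 of the 5 members there with an H3K27ac peak lay higher (background 44.6%). For ZFP36L2 and TOMM20, singled out likewise, it was 4 of 4 each. At ZFP36L2, an RNA-binding regulator of messenger decay, the loci were LINC01819, LINC02580, ENSG00000286796 and ENSG00000287387, and the first 3 gained H3K27ac from none in DMSO. LINC02580 had 472 and 379 bp against 0 and 0. Near SULF2, all 3 members with an H3K4me2 peak lay higher in it, of 11 members there (background 20.5%). Whether higher members cluster by neighbour was not tested. Loci that share a neighbour may also share a regulatory region and are not independent.

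The 5 members with the largest positive H3K4me2 difference were likewise CpG-poor, and none of them had H3K4me3 in any library. TMEM78 (chr1:229249636-229251810, plus strand), a lncRNA in spite of its symbol, had 2001 and 1649 bp under H3K4me2 peaks after Corin and 0 and 0 after DMSO, and H3K27ac at 931 and 840 bp against 494 and 0. ENSG00000290858 (chr17:31041088-31059121, minus strand), 35.8 kb from NF1 and tagged as overlapping a pseudogene, had 1282 and 1189 bp against 0 and 0. ENSG00000259712 (chr15:52056675-52100523, minus strand) had H3K4me2 at 1616 and 1720 bp against 702 and 492 and H3K27ac at 1376 and 1101 against 483 and 514.

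Of the 60 members with lower H3K4me2, 28 were CpG-rich (46.7%), against 76 of the 398 with higher H3K4me2 (19.1%) and 349 of all 1178 with the mark (29.6%). Protein-coding starts showed the same order, with 941 of 1238 lower and 1118 of 2253 higher ones CpG-rich. Beside MIRLET7IHG and SNHG16, the largest negative differences were at ENSG00000291228, HCG11 and LINC00886. LINC00886 (chr3:156747343-156817062, minus strand) had 1693 and 1328 bp under H3K4me2 peaks against 2001 and 2001, and H3K27ac at 2001 and 2001 bp against 1595 and 1505. In a window of 2 kb to either side its H3K4me2 difference was 108.5 bp in the other direction.

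H3K4me3 lay higher at 100 and lower at 47 of the 518 members with the mark, shares near the background of 18.4% and 9.36%. BCAN-AS2 (chr1:156646507-156661424, minus strand) had 829 and 1017 bp under H3K4me3 peaks after Corin against 0 and 305, the largest positive difference, and gained H3K27ac, with 1333 and 718 bp against 0 and 0. ENSG00000291079 (chr5:1598920-1634014, minus strand) had 448 and 734 bp against 0 and 0, and ENSG00000289053 (chr7:26101646-26118068, plus strand) 542 and 617 against 0 and 0. The largest negative difference was at ANKRD18DP (chr3:198057531-198080754, minus strand), with 786 and 1026 bp against 1434 and 1364. That start is CpG-rich, is tagged as overlapping a pseudogene, and had H3K27ac at 749 and 1001 bp against 322 and 567.

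All 11 H3K4me3 gains already had H3K4me2 in DMSO, 6 of them alone and 5 with H3K27ac. At 2 of the 11 the TSS base was under the peak in both Corin libraries. The 3 losses were ENSG00000291179, ENSG00000230303 and ENSG00000290924, and the windows of the last pair overlap. H3K4me2 was lost at LINC02774, at MFSD14CP and at the facing starts ENSG00000290890 and ENSG00000261079.

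Only 4 members had lower H3K27ac after Corin without overlap between the groups. SLC1A3-AS1 (chr5:36666214-36725204, minus strand) had 200 and 376 bp against 597 and 442. CRYBB2P1 (chr22:25448080-25520856, plus strand) lost the mark, with 0 and 0 bp against 257 and 201. RP9P (chr7:32916810-32943176, minus strand) had 217 and 296 bp against 332 and 441, and ENSG00000259003 (chr14:22556640-22559068, plus strand) 1616 and 1648 against 1690 and 1709. In a window of 2 kb to either side the difference at ENSG00000259003 was positive, and so was that at RP9P in a window of 500 bp to either side.

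The library facts that bear on these values are these. The lists held between 11104 and 41152 peaks and no reads, so the depth is unknown, and no interval or detection floor was computed. Of 7 myeloid markers, the starts of SPI1, CD33, FLT3 and CEBPA had H3K4me3 in 4 of 4 libraries, PTPRC in 3 and MPO in 0, with MPO marked by H3K27ac in 4. The start of CSF1R, also a myeloid marker, had no peak of any mark in any library. The starts of CD3E, EPCAM and ALB, of other cell types, had no peak of any mark, COL1A1 had H3K4me2 only, and GATA1, on chromosome X, was not measured.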

How the data were processed

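Members and gene lists were chosen with earlier results of these data known. The authors deposited 1 peak list per library with position and a whole-number score of at least 50, whose definition is not given in the sources used here; it served only to rank and filter peaks within a list. Trim Galore, Bowtie2, Picard and MACS2 and the hg38 build are named in the submitters' processing notes, without roles or versions. No peak ended past an hg38 chromosome end. The files hold no reads, so depth is unknown.

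From the lists, peak overlap and bases under peaks were computed per 2001 bp window with Python 3.11.15, numpy 2.4.6 and pandas 2.3.3. A share is windows with a peak over all windows, and log2 ratios compare group means. Tests were exact two-sided permutations over libraries, checked on simulated lists. Named were members on the preset lists (hosts of microRNAs or snoRNAs only with a peak), per mark the 5 largest positive and 5 largest negative bp differences among members whose groups did not overlap, and the 3 with the most H3K4me3 in DMSO. Other genes named in the text were chosen after their values were seen. Genes on chromosome 8 were counted and are not described singly. Promoter sequences came from hg38 at GENCODE release 44 starts. The share of repeats was not computed, since the genome copy carries no repeat masking. Some of the marker genes and promoter sequences examined are not reported here.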

Additional observations from a re-analysis of the deposited data

How the results depend on the processing

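Across the alternatives, no comparison over the whole set of members changed sign, while 11 values of single members did. The mean response of the share over the 3 marks missed 0.05 at a matched number of top-scoring peaks (0.087, p = 0.0741) and when a peak had to cover the TSS base (0.375, p = 0.0556, exact permutation). With same-numbered libraries paired as a replicate block, the mean response was 0.310, that relative to protein-coding starts 0.172 and that of bases under peaks 0.356, each at p = 0.0312 (exact sign-flip permutation), the smallest possible. Deviations of same-numbered libraries from their group means correlated at 0.367, 0.334 and 0.223 over members with H3K4me3, H3K4me2 and H3K27ac, which with 2 pairs a mark and labels that do not say what a number shares is a hint only; the block changed no call.

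Counts moved most. At matched number 29 members gained H3K4me2 and 14 lost it, 27 gained H3K27ac and 5 lost it, and 7 lost H3K4me3. With the TSS base covered, 36 gained H3K4me2, 6 lost H3K4me3 and 0 lost H3K27ac. H3K4me2 losses were 2 at a score of at least 100 and 2 beyond 10 kb from protein-coding starts. H3K27ac losses were 0 at a score of at least 100, 2 in windows of 500 bp and 3 in windows of 2 kb to either side. Leaving out each library in turn, a looser rule by construction, gave 15 to 41 gained and 7 to 12 lost for H3K4me3, 96 to 144 and 6 to 23 for H3K4me2, and 135 to 165 and 1 to 11 for H3K27ac.

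Of 776 alternative values for named members, 765 did not reverse and 11 did. Of those that did not, 672 stayed within the SD of the difference and 93 moved by at least that much. The cause was not tested. H3K27ac reversed at NEAT1 (-34 bp at matched number and at a score of at least 100), MIR9-1HG (-178) and SNHG7 (-106) at matched number, SNHG11 (-14.5), SNHG26 (-17.5) and RP9P (11) in windows of 500 bp, and ENSG00000259003 (118.5) in windows of 2 kb. H3K4me2 reversed in windows of 2 kb at ENSG00000289053 (343), LINC00886 (108.5) and ENSG00000289057 (494.5).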

Other observations

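The share with H3K4me3 differed between classes of gene name; no test was applied. In DMSO, H3K4me3 was found at 3.71% ± 0.280 (SD, n = 2) of the 2023 members with LINC symbols, at 3.66% ± 0.241 of the 6449 with an identifier only and at 10.7% ± 1.11 of the 191 named as antisense to another gene. Among 60 microRNA hosts it was found at 18.3% in both libraries, and among 15 snoRNA hosts at 93.3%. Members at GENCODE annotation level 1 had it at 3.23% ± 0.269, beside 4.78% ± 0.302 at level 2.

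Some named members had values that overlapped between the treatments. NORAD, a cytoplasmic lncRNA that binds PUMILIO proteins, had 959 and 959 bp under H3K4me3 peaks after Corin and 969 and 954 after DMSO, while its H3K4me2 was lower after Corin, at 695 and 587 bp against 732 and 989. MIR3142HG had H3K4me2 at 972 and 924 bp after Corin and 979 and 944 after DMSO, and no peak of the other marks. CHASERR likewise had H3K4me2 alone, at 706 and 368 bp after Corin and 621 and 470 after DMSO. MIRLET7BHG was covered over the full 2001 bp by H3K4me3 and H3K4me2 in all libraries, and its H3K27ac was higher after Corin, at 2001 and 2001 bp against 1732 and 1769.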
